A study of Mus musculus with 6 samples.

Results

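The Trim and Gvin gene clusters on chromosome 7 comprise 9 genes of the 27179 in the count table: Trim34a, Trim5, Trim12a, Trim12c, Trim30a and Trim30d in one cluster, and Gvin1, Gm8995 and Gm1966 in the other. The members were selected on the genotype contrast, by name after several of them had stood out between genotypes in the counts of these same libraries, so their genotype differences are given as a description without a test. All 9 passed the filter on low expression that left 11005 genes for testing. Read counts per gene came from 6 RNA-seq libraries of germinal center (GC) B cells sorted from mouse spleen as NP-binding, IgG1+, CD38- cells after immunization with the hapten NP coupled to KLH in alum. The genotypes were WT and Il21r-/- (labelled Il21r KO), both on a C57BL/6 background, with 1 library of each on days 7, 10 and 14.

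Il21r-/- cells lack the receptor for IL-21, a cytokine that T follicular helper cells deliver to GC B cells. The methods describe the Il21r-/- line as backcrossed onto C57BL/6, and state for nearly all experiments that irradiated mice reconstituted with bone marrow of either genotype were used. A genotype difference therefore cannot be told apart from any other difference between the donor lines, including DNA that travelled with the targeted allele. The description of the series gives each library a mouse of its own, whereas the methods give more mice per genotype than there are libraries, from separate immunizations, so the number of mice behind a library is not settled. With 1 library per genotype and day, p-values over the 6 libraries measure the spread between these libraries after a linear effect of day.

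TRIM proteins are multidomain proteins with a RING, a B-box and a coiled-coil region, and many of them are E3 ubiquitin ligases of antiviral defence. In primates a single TRIM5 blocks incoming retroviral capsids, whereas in the mouse the same stretch of chromosome has expanded into the Trim5, Trim12 and Trim30 genes. Gvin genes encode very large GTPases that interferon induces, and they are related to the guanylate-binding proteins (GBPs). Duplicated genes of this kind are similar in sequence to varying degrees, which bears on how sequencing reads are shared between them.

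The 6 Trim genes lie between positions 104244448 and 104507853 of chromosome 7 and the 3 Gvin-like genes between 106156535 and 106644646 (GRCm38, the build that mm10 names, with gene positions from RefSeq). Il21r is on the same chromosome, 21.1 to 21.3 Mb from the Trim genes and 19.0 to 19.4 Mb from the Gvin-like genes. Promoter windows from RefSeq (GRCm38.p6), which span 250 bases before and 50 after a start site, covered 7 of the 9 members in 8 windows. Gvin1 and Gm8995 had no entry. Both strands were searched for the interferon-stimulated response element written as GAAANNGAAA, which reads TTTCNNTTTC on the other strand. All 8 windows held it, against 3.44% of the 32851 windows in the table. Within the 250 bases before the start alone, 5 of the 7 genes held it, against 2.98% of all windows, because the match in Trim34a and Trim12a began 11 bases after the start. The windows are not independent, since several are copies of each other. STAT elements written as TTCNNNGAA or TTCNNNNGAA were in none of the 8 windows, against 8.3% and 6.95% of all windows. A match is a description of the letters and not evidence of a bound site.

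The windows of the Trim12 and Trim30 pairs, whose copies parted between genotypes, and of Gm1966 are shown next, from 250 bases before to 20 bases after the start, 5′ to 3′ on the minus strand, with the GAAANNGAAA match in capitals.
Trim12a (chr7:104315476-104315745): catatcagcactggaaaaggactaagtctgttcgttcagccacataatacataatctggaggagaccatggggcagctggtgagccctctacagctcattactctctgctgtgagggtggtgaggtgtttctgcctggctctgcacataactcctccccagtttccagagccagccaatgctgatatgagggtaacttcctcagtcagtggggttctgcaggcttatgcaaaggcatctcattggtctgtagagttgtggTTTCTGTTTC
Trim12c (chr7:104353330-104353599): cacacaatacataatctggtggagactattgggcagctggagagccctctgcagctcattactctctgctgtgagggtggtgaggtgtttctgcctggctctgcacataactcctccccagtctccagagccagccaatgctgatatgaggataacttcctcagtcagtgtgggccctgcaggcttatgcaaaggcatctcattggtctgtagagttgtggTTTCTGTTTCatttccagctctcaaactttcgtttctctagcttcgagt
Trim30a (chr7:104465174-104465443): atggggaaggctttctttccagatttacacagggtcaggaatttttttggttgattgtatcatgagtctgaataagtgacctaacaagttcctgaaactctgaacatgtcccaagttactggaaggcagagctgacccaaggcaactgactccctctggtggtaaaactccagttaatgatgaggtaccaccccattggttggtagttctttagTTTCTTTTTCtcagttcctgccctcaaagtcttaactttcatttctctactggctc
Trim30d (chr7:104507830-104508099): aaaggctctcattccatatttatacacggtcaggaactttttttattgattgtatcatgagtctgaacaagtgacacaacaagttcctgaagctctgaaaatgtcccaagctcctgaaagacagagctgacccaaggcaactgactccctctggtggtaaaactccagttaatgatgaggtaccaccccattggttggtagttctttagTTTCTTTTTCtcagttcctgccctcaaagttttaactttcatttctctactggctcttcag
Gm1966 (chr7:106644626-106644895): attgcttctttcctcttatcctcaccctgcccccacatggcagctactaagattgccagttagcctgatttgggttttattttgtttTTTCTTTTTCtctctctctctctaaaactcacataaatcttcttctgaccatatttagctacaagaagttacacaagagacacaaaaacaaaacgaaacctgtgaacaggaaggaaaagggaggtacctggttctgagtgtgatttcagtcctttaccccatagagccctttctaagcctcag

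Over these 270 bases, Trim12a and Trim12c were identical at 95.7% of 230 aligned bases, and Trim30a and Trim30d at 93.2% of 265. Trim5 and Trim12a were identical at all 211 bases that aligned, with the annotated start of Trim12a further upstream. The values of each pair are given further below. These windows are reference sequence, and those of the mouse lines themselves were not examined. The element in Trim34a read TTTCAGTTTC, that in Trim5, Trim12a and Trim12c TTTCTGTTTC, and that in Trim30a, Trim30d and Gm1966 TTTCTTTTTC.

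The libraries held 21353438 to 27435124 counts each. Il21r was lower in all 3 Il21r-/- libraries, at 105.8, 127.6 and 112.7 CPM (counts scaled to the size of a library) on days 7, 10 and 14, than in WT, at 345.8, 263.0 and 246.6 CPM, which fits the labels, although reads of the targeted gene remained at 40.5% of the WT mean. The GC B cell markers Bcl6, at 186 to 239 CPM in WT and 145 to 219 CPM in Il21r-/-, and S1pr2, at 466 to 621 CPM in WT and 443 to 523 CPM in Il21r-/-, were detected in every library.

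Trim34a, an interferon-inducible TRIM gene at the end of its cluster, was at 42.4, 33.2 and 33.8 CPM on days 7, 10 and 14 in WT and at 5.02, 4.76 and 5.66 CPM in Il21r-/-. Trim5, the gene that carries the name of the primate capsid-binding factor, was at 24.8, 21.3 and 20.1 CPM in WT and 3.40, 2.55 and 2.45 CPM in Il21r-/-. Trim12a was at 34.6, 28.3 and 37.4 CPM in WT and 1.88, 1.56 and 1.81 CPM in Il21r-/-. For each of these neighbouring genes every WT library lay above every Il21r-/- library, and the lowest WT value exceeded the highest Il21r-/- value several fold. The log2 fold change over 3 days, WT over Il21r-/-, was 2.82 (SE 0.149) for Trim34a, 2.98 (SE 0.144) for Trim5 and 4.26 (SE 0.173) for Trim12a. Mean CPM in Il21r-/- was 14.1%, 12.7% and 5.23% of WT, respectively.

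Trim12c, a close copy of Trim12a, was at 55.6, 47.8 and 51.2 CPM in WT and 69.9, 57.9 and 52.8 CPM in Il21r-/-. The groups overlapped, and the log2 fold change was -0.22 (SE 0.11). Trim30a, the best studied mouse TRIM of the locus, which restrains NF-kB signalling downstream of Toll-like receptors, was at 47.5, 43.1 and 35.3 CPM in WT and 69.6, 55.1 and 56.0 CPM in Il21r-/-. All Il21r-/- libraries lay above all WT libraries, with a log2 fold change of -0.52 (SE 0.106). Trim30d, its copy, went the other way, at 8.28, 5.04 and 7.12 CPM in WT and 2.75, 1.56 and 2.25 CPM in Il21r-/-, with a log2 fold change of 1.64 (SE 0.264).

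Gm1966 and Gm8995 are Gvin-like genes that GENCODE lists as pseudogenes, Gm1966 being protein-coding in RefSeq. Gm1966 had 362, 266 and 166 counts on days 7, 10 and 14 in WT, or 13.3, 10.8 and 7.77 CPM, and 5, 9 and 1 counts in Il21r-/-. Gm8995 had 82, 82 and 36 counts in WT and 305, 514 and 275 counts in Il21r-/-, or 3.01, 3.33 and 1.69 CPM against 13.3, 19.6 and 11.0 CPM. The pair thus ran in opposite directions on every day, Gm1966 near 0 in Il21r-/- and Gm8995 lower in WT. The log2 fold change over 3 days was 5.68 (SE 0.424) for Gm1966 and -2.47 (SE 0.257) for Gm8995, and mean CPM of Gm8995 was 5.48-fold higher in Il21r-/-. The day 14 ratio of Gm1966, 194-fold, rests on 1 count and has a counting interval of 34.3 to 7690 (95%, counting error only). Gvin1, the annotated protein-coding GTPase of the group, was at 5.50, 8.50 and 4.36 CPM in WT and 5.02, 7.70 and 3.81 CPM in Il21r-/-, and the groups overlapped (log2 fold change 0.15, SE 0.296).

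Of the 9 genes, 5 had all WT libraries above all Il21r-/- libraries (Trim34a, Trim5, Trim12a, Trim30d and Gm1966), against 8.33% of the 11005 genes tested. The reverse held for 2 of them, Trim30a and Gm8995, against 10.0%. Since the genes were listed for this contrast, nothing is read from these counts.

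**Figure D1:**
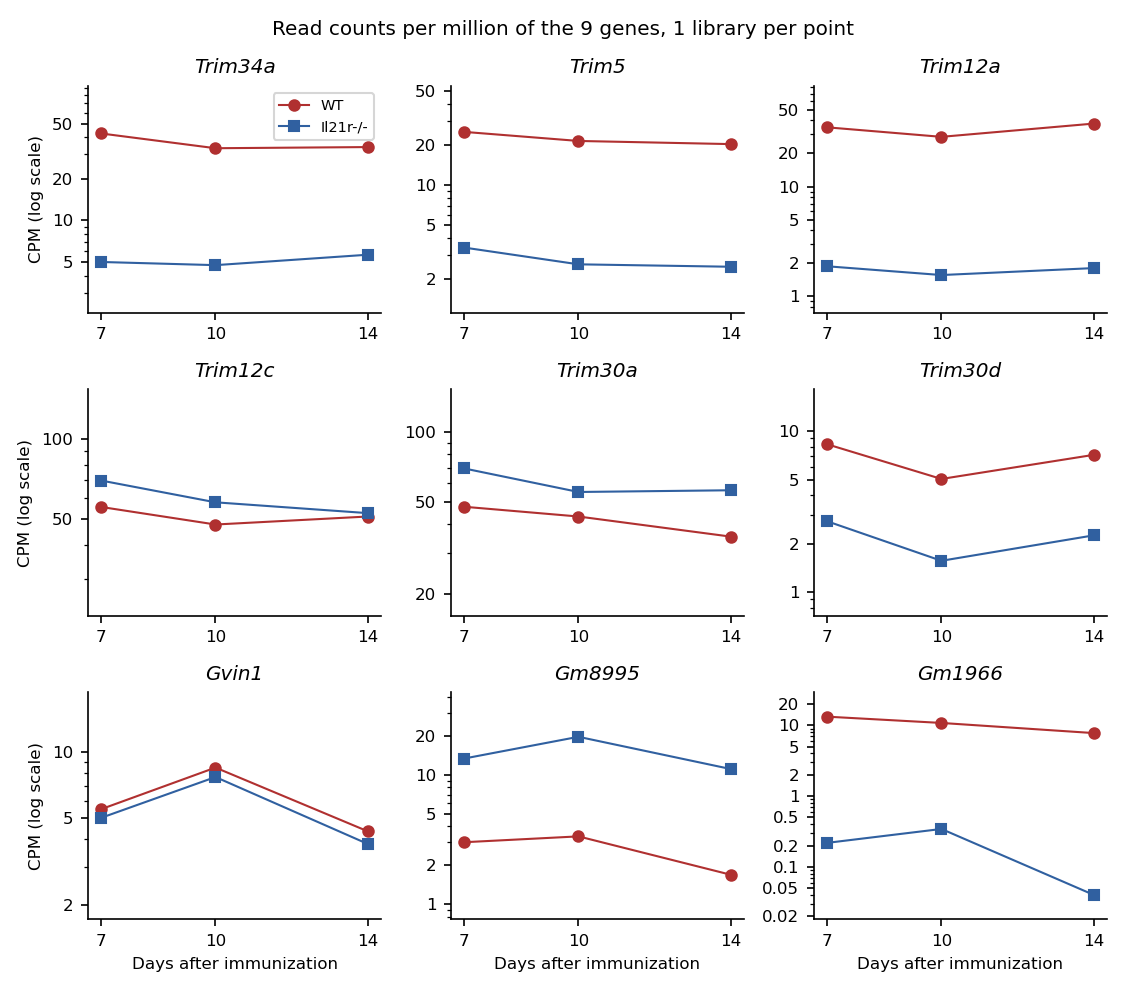
CPM on a log scale (vertical axis, a separate range for each gene) against days after immunization for the 9 genes, 1 library per point, WT as red circles and Il21r-/- as blue squares. The WT points lie far above the Il21r-/- points for Trim34a, Trim5, Trim12a, Trim30d and Gm1966, below them for Gm8995 and Trim30a, and near them for Trim12c and Gvin1.

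All 9 genes kept the direction of their difference on the 3 days. The share of all genes that did so is not given, and nothing is read from this count. The log2 fold change was smaller than its SE for Trim12c on day 14 (-0.04, SE 0.227). The same held for Gvin1 on days 7, 10 and 14 (0.13, 0.14 and 0.19, SE 0.539, 0.528 and 0.55), so these directions are uncertain. For Trim12a the log2 fold change was 4.20 (SE 0.358) on day 7, 4.18 (SE 0.362) on day 10 and 4.37 (SE 0.356) on day 14. For Trim30d it was 1.59 (SE 0.475), 1.69 (SE 0.501) and 1.66 (SE 0.484). For Trim34a it was 3.08 (SE 0.3), 2.80 (SE 0.299) and 2.58 (SE 0.296). On day 7 alone, 1.07% of all genes tested passed the likelihood ratio test at an adjusted p under 0.05. The standard errors take the spread from the fit over all 6 libraries, because each day had 1 library per genotype.

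**Figure D2:**
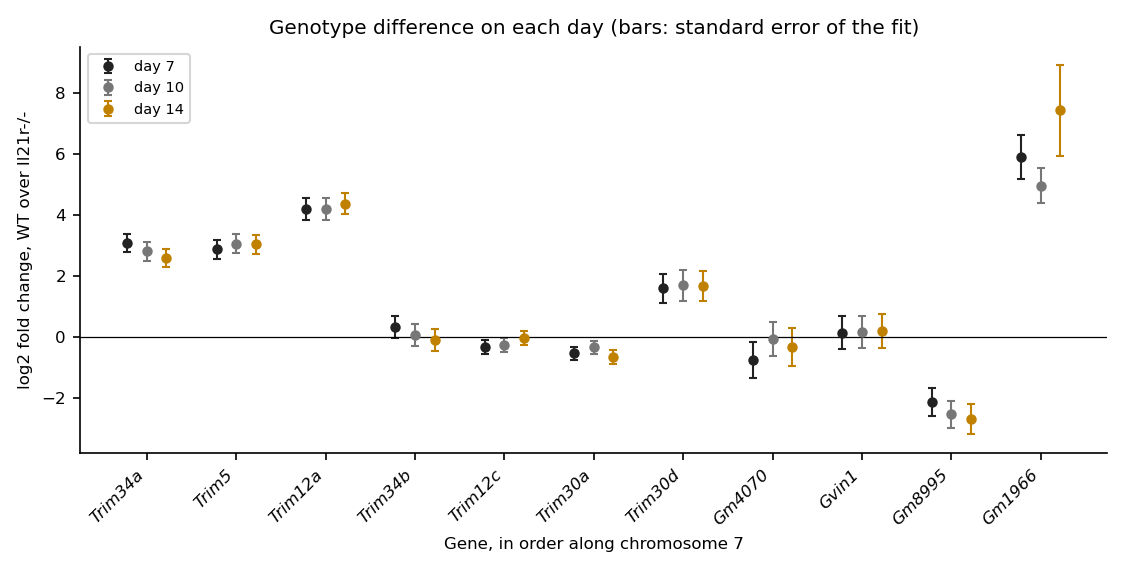
Log2 fold change, WT over Il21r-/-, on day 7 (black), day 10 (grey) and day 14 (orange) for the 9 genes and their tested close copies Trim34b and Gm4070, in order along chromosome 7, with bars of 1 standard error of the fit. Neighbouring genes differ in sign and size, and each of the 9 genes has one sign on all 3 days. Gm1966 has the widest spread, from 4.96 on day 10 to 7.43 on day 14, and the widest bars.

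The change over days was not what the genes were listed for, and it was tested with edgeR's quasi-likelihood test and Benjamini-Hochberg adjustment over all 11005 genes. None of the 9 genes had a day slope past the threshold of 0.05, against 4.43% of all genes, and 0 passed with DESeq2. Unadjusted, 2 of the 9 were under 0.05, a share like that of all genes (2587 of 11005): Trim30a, with a slope of -0.05 log2 units per day (SE 0.0186, adjusted p = 0.143), and Gm1966, with -0.12 (SE 0.0487, adjusted p = 0.176). Without the Il21r-/- library of day 10 both passed, with much the same slopes of -0.05 (adjusted p = 0.0238) and -0.12 (adjusted p = 0.0331). Leaving that library out also raised the genes called for genotype from 651 to 2093. The share of all genes with a day slope past the threshold in that fit is not given here. Nothing is therefore read from the passing of these 2 genes. The slope was negative for 8 genes and positive for 1, Trim12a. The median slope was -0.0514 log2 units per day, beside 6e-04 over all genes. The difference in slope between genotypes passed for none of the 9 genes, and none had an unadjusted p under 0.05. Over all genes 0% passed by the same edgeR quasi-likelihood test, and 118 genes had an unadjusted p under 0.05.

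Per length, the order of the genes changed with genotype. Levels as RPKM (CPM divided by gene length) in WT were highest for Trim12a, at 21.9 ± 3.05 (SD, n = 3), followed by Trim34a at 14.1 ± 1.99 and Trim12c at 13.8 ± 1.05, which did not differ beyond their spread. Trim30a was at 11.1 ± 1.64 RPKM and Trim5 at 8.52 ± 0.948 RPKM, with overlapping ranges. Trim30d, at 1.81 ± 0.437 RPKM, overlapped with the Gvin-like gene Gm1966 at 1.37 ± 0.354 RPKM. Gvin1 followed at 0.677 ± 0.237 RPKM and Gm8995 at 0.338 ± 0.11 RPKM. In Il21r-/-, Trim12c and Trim30a came first and overlapped, at 16.1 ± 2.35 and 16.0 ± 2.15 RPKM. Trim34a followed at 1.99 ± 0.179 RPKM and overlapped with Gm8995, at 1.85 ± 0.559 RPKM. Trim12a, first in WT, was at 1.15 ± 0.108 RPKM in Il21r-/-, and Gm1966 was last at 0.0258 ± 0.0196 RPKM.

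Because copies can take each other's reads, sums over some related genes were set beside their parts. The sums did not all follow the measured sharing of sequence given below, and whether reads moved between copies was not tested. Trim5, at a mean of 22.1 CPM in WT and 2.8 CPM in Il21r-/-, was left out. Trim34b (means 4.26 and 4 CPM) was not added to Trim34a (36.4 and 5.15 CPM). Gm4070 (1.72 and 2.18 CPM) was not added to Gvin1 (6.12 and 5.51 CPM). The sum of Trim12a and Trim12c was 85.0 ± 7.71 CPM in WT and 61.9 ± 8.85 CPM in Il21r-/- (SD, n = 3 each), a log2 fold change of 0.47 (SE 0.119) beside 4.26 for Trim12a alone. Trim12a held 37.2 to 42.2% of that sum's counts in WT and 2.62 to 3.31% in Il21r-/-. The sum of Trim30a and Trim30d was 48.8 ± 6.71 CPM in WT and 62.4 ± 8.63 CPM in Il21r-/-, a log2 fold change of -0.36 (SE 0.106), and Trim30d held 10.5 to 16.8% of its counts in WT and 2.76 to 3.86% in Il21r-/-. The 3 Gvin-like genes summed to 19.4 ± 4.86 CPM in WT and 20.4 ± 6.55 CPM in Il21r-/-, and the groups overlapped (log2 fold change -0.09, SE 0.216). The sign of this value turned with the libraries used, from -0.31 without the Il21r-/- library of day 7 to 0.19 without that of day 10. Gm1966 held 76.4 to 82.2% of the counts of Gm1966 and Gm8995 in WT and 0.362 to 1.72% in Il21r-/-.

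**Figure D3:**
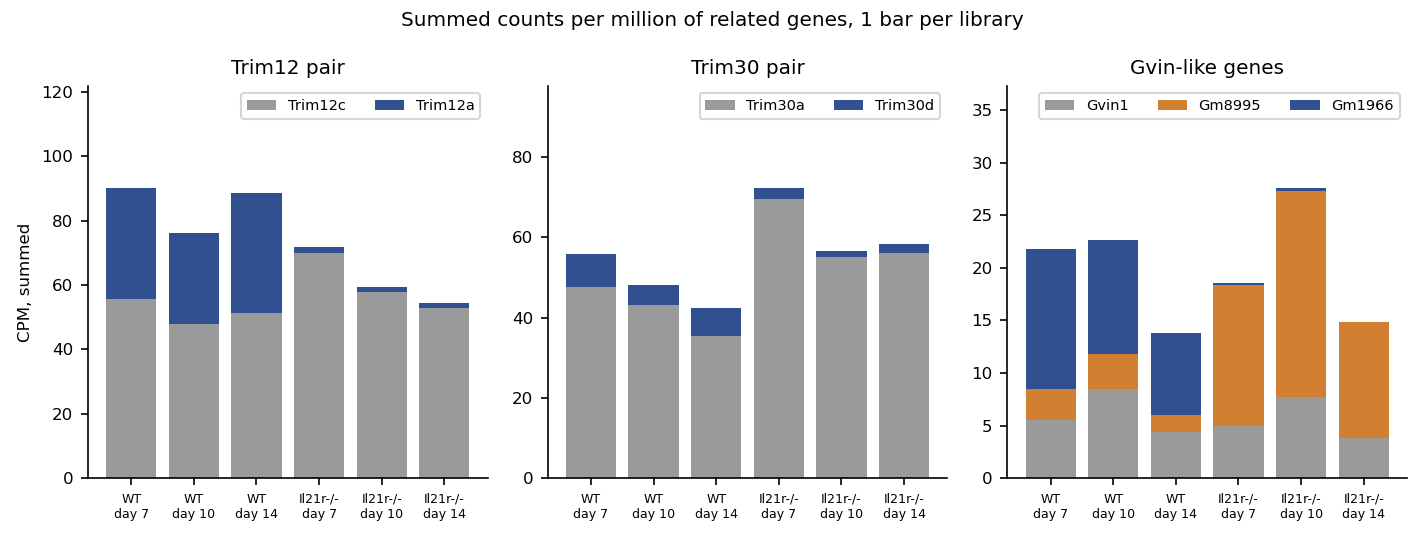
Stacked CPM (vertical axis, from 0) in each of the 6 libraries for the Trim12 pair, the Trim30 pair and the 3 Gvin-like genes. The blue part (Trim12a, Trim30d or Gm1966) is larger in the 3 WT bars than in the 3 Il21r-/- bars. Trim30d is a small part of every bar. In relative terms the total heights differ less than the blue parts.

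How far reads of these genes can be placed was read from GENCODE M21 transcripts, as the share of 100-base windows of a gene, the read length of the study, that also occur in another gene. The share was 97.8% for Gvin1, whose transcript differed from that of Gm4070 at 3 of 9005 bases, so the level of Gvin1 is uncertain. It was 39.0% for Trim34a, whose close copy is Trim34b, 11.7% for Trim5, 8.05% for Trim12c, 4.57% for Trim30d, 4.41% for Trim30a and 3.29% for Trim12a. It was 3.0% for Gm8995 and 1.06% for Gm1966, which were 91.9% identical over 7289 aligned bases. For all members but Gvin1, most of the reference windows therefore had no exact copy in another gene. In their best alignment, transcripts of Trim30a and Trim30d were 83.4% identical over 2002 bases. The windows were pooled over all GENCODE transcripts of a gene, whereas the counts used RefSeq genes. For Trim12a this gave 5991 windows from 6 transcripts, beside a counted length of 1525 bases. Shares over the counted bases alone may be larger and were not computed. Reads that differ from the reference, as in a line with other alleles, were not examined, and the handling of reads with several matches is not given in the sources used here.

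Further family genes were few. Of 27 listed, 16 were in the table and 4 were tested, and by edgeR's quasi-likelihood test none passed over 3 days, none of them had an unadjusted p under 0.05, and DESeq2 called 0, against 5.92% of all genes by the edgeR test. Trim34b, which sits among the Trim members and is 98.7% identical to Trim34a over 1827 bases, was at 4.80, 3.86 and 4.12 CPM in WT and 3.88, 3.70 and 4.42 CPM in Il21r-/-. Its groups overlapped (log2 fold change 0.09, SE 0.184). Of the counts of both copies, Trim34a held 89.1 to 89.8% in WT and 56.2 to 56.4% in Il21r-/-. The other tested genes were Gm4070 (-0.34, SE 0.33), Trim21 (-0.12, SE 0.13), an intracellular antibody receptor, and Trim68 (-0.31, SE 0.179).

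Some further genes at the clusters were too low for the main test. They were picked after their values were seen. Trim30b had 24, 6 and 7 counts on days 7, 10 and 14 in WT and 0, 0 and 1 in Il21r-/-. Gm15133, a non-coding RNA gene that overlaps the 5′ end of Trim12a, had 26, 16 and 14 counts in WT and 0 in each Il21r-/- library, which on day 7 makes WT at least 7.28-fold higher against a floor of 3 counts per library. The Gvin-related pseudogene Gm4759 ran the other way, with 2, 0 and 0 counts in WT and 21, 45 and 15 in Il21r-/-. So did 9130208D14Rik, with 1, 9 and 5 counts in WT and 23, 56 and 19 in Il21r-/-. Of other low genes at the Gvin cluster, Gm18852, Gm18853 and Gm8979 overlapped between genotypes. Gm8989 did not overlap in CPM and was higher in Il21r-/-, with 3, 2 and 2 counts in WT and 10, 4 and 3 in Il21r-/-. Since the named genes were picked on their values, nothing is read from their directions.

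The genes around the clusters were taken by position alone. Within 1 Mb of either cluster, 17 of 163 other genes were tested, and 1 passed (5.88%, near the 5.92% of all genes, by edgeR's quasi-likelihood test), Ppfibp2, a liprin family gene, which was higher in Il21r-/- (log2 fold change -1.15, SE 0.192, adjusted p = 0.011). Without the WT library of day 14, 0 of the 17 passed, when 136 of all genes did. Without the Il21r-/- library of day 10, 4 of the 17 passed, when 2093 of all genes did. The median log2 fold change of the 17 was -0.04, beside -0.01 over all genes tested. The tested genes next to the Trim cluster, Dnajc19-ps and Gm4887, had log2 fold changes of -0.03 (SE 0.139) and 0.18 (SE 0.232). The tested genes that flank the Gvin-like genes were Gm4070 and Ppfibp2. With members and Il21r left out, 38 of 811 tested genes on chromosome 7 passed, or 4.69%. Between the Gvin genes and Il21r 5 of 75 passed, or 6.67%, beside 5.92% of all genes. These shares do not give the size of a difference. In that interval Gprc5b had a log2 fold change of -7.54, larger in size than that of any member. Elsewhere on chromosome 7, Apobr, 0.97 Mb from Il21r, had 3.76, and Pde2a, beyond the Trim cluster, had 2.59. Saxo2, Fcgrt, Fam169b and Kctd14 had -2.17, -2.12, -2.07 and -2.02. These genes were named for their size, and a cause shared with the members was not tested.

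**Figure D4:**
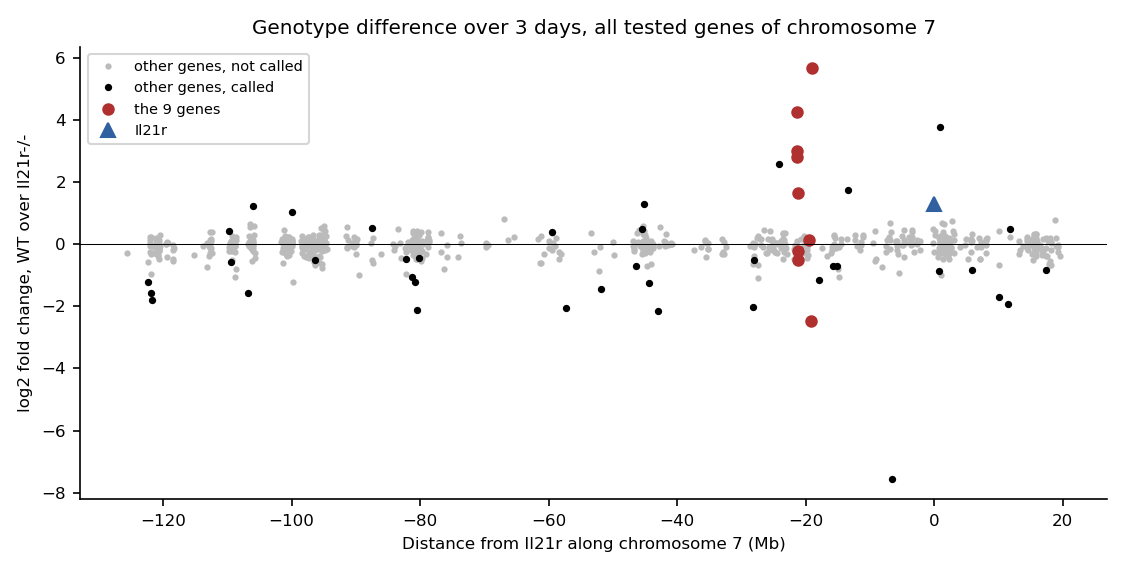
Log2 fold change over 3 days, WT over Il21r-/-, for all tested genes of chromosome 7 against the distance from Il21r (Mb), with the 9 genes in red, Il21r as a blue triangle, and other genes in black where adjusted p was under 0.05. The 9 genes stand between -2.47 and 5.68 at 2 places about 19 to 21 Mb from Il21r, and most grey points around them lie near 0.

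The genes of the interferon pathway were measured as lists. Of 17 tested interferon-inducible GTPases, 0 passed as higher in WT and 4 as higher in Il21r-/- (edgeR's quasi-likelihood test, adjusted p under 0.05), beside 1.40% of all genes as higher in WT and 4.52% as higher in Il21r-/-. The 4 were the GBPs Gbp2b (log2 fold change -5.19, SE 0.468), Gbp8 (-1.78, SE 0.237), Gbp3 (-0.84, SE 0.115) and Gbp9 (-0.70, SE 0.123), and the list median was -0.21. Gbp2b was at 0.115 ± 0.0756 CPM in WT and 4.20 ± 0.74 CPM in Il21r-/-. Tgtp1 and Tgtp2, also GTPases, had log2 fold changes of 1.16 (SE 0.307, adjusted p = 0.0649) and 1.15 (SE 0.433, adjusted p = 0.169).

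Of 39 tested interferon-stimulated genes, 7 passed as higher in Il21r-/- and 0 as higher in WT, beside 4.52% and 1.40% of all genes. The list median was -0.20. Ifi203, a nucleic acid sensor family gene, was at 10.8 ± 5.66 CPM in WT and 26.9 ± 8.2 CPM in Il21r-/- (log2 fold change -1.40, SE 0.157). Ifi27l2a had a log2 fold change of -1.10 (SE 0.141), Slfn2 -0.97 (SE 0.166), Ifi208 -1.20 (SE 0.256), Xaf1 -0.89 (SE 0.195) and Ddx58, which encodes the RNA sensor RIG-I, -0.98 (SE 0.215). In this fit the GTPases and interferon-stimulated genes that passed were all higher in Il21r-/-. With day as a replicate block, 12 interferon-stimulated genes passed, when 2519 of all 11005 genes did. Of the 12, Eif2ak2 was higher in WT (log2 fold change 0.49, SE 0.143, adjusted p = 0.0114). Without the WT library of day 14, 1 GTPase and 2 interferon-stimulated genes passed, when 136 of all genes did.

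Of 26 tested genes of interferon and IL-21 receptor signalling, 3 passed, or 11.5% beside 5.92% of all genes. With day as a replicate block 11 passed, when 2519 of all 11005 genes did. In the main fit Il21r itself was higher in WT. So was Jak3 (log2 fold change 0.62, SE 0.132, adjusted p = 0.0296), the kinase bound to the common gamma chain. Ifngr2, a chain of the interferon gamma receptor, was higher in Il21r-/- (-0.93, SE 0.124, adjusted p = 0.00427). Without the WT library of day 14, 1 of the list passed, when 136 of all genes did. Without the Il21r-/- library of day 10, 6 of the list passed, when 2093 of all genes did. Among 27 other tested Trim genes none passed by edgeR's quasi-likelihood test and 0 by DESeq2, with 3 at an unadjusted p under 0.05. Over all genes 5.92% passed the edgeR test and 2356 of 11005 had an unadjusted p under 0.05, so this list is not shown to differ from the rest.

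**Figure D5:**
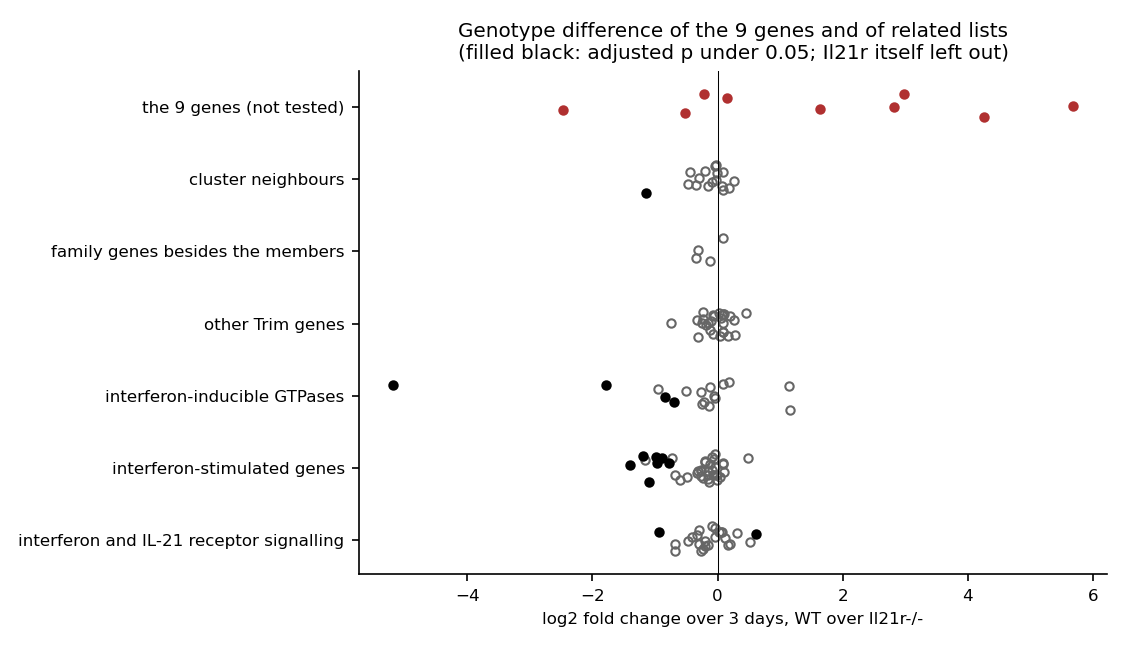
Log2 fold change over 3 days, WT over Il21r-/-, 1 point per tested gene, for the 9 genes (red, not tested) and the lists, filled black where adjusted p was under 0.05. The 9 genes spread from -2.47 to 5.68, and the GTPases and interferon-stimulated genes that passed in this fit lie on the negative side.

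By the distance between mean-centred log2 CPM over the 6 libraries, the genes most like Trim30d were Slpi (0.587), Hes1 (0.628) and Apoc2 (0.654). Those most like Gm8995 were Niban1 (0.699), Tlr7 (0.717) and Oaf (0.775). With the 9 members left out of the search, those nearest to Gm1966 were Apobr (3.02), Il2rb (3.27) and Pde2a (3.40), while the member Trim12a lay at 2.17. Members aside, Apoc2, Apobr and Pde2a of these nearest genes are also on chromosome 7, and the others are on other chromosomes. The distance grows with the size of a gene's own differences between libraries, so it is not comparable between the 3 members.

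Markers of other cell types were checked beside these values. The T cell list summed to 86.4 to 122 CPM in WT and 81.7 to 117 CPM in Il21r-/-, nearly all of it Lck, with Cd3e at or below 0.0937 CPM. The myeloid list was higher in Il21r-/-, at 51.1 to 83.0 CPM beside 25.1 to 48.3 CPM in WT, with 6 of its 9 genes detected in every library and most of the sum from Mpeg1, which B cells also express. The plasmacytoid dendritic cell list summed to 121 to 145 CPM in WT and 93.1 to 120 CPM in Il21r-/-, nearly all of it Tcf4 and Bst2. Siglech and Ccr9 of that list were at or near 0. Clec10a, also listed, was at 0 in all libraries, and nothing is read from it. The plasma cell list summed to 2500 to 2720 CPM in WT and 2740 to 3580 CPM in Il21r-/-, nearly all of it Jchain and Xbp1. The plasma cell genes Prdm1 and Sdc1 went the other way, Prdm1 at 1.39, 1.83 and 1.59 CPM in WT and 0.262, 0.61 and 0.682 CPM in Il21r-/-, and Sdc1 at 0.733 to 0.854 CPM in WT and 0.361 to 0.495 CPM in Il21r-/-. The erythroid list summed to 9.92 to 19.0 CPM in WT and 4.80 to 33.6 CPM in Il21r-/-. The sort took B220+ cells and left out cells with CD138, the plasma cell marker that Sdc1 encodes, and with the granulocyte marker Gr1. The part of the myeloid and plasma cell sums in the differences above was not tested. In bulk libraries, fewer cells that express a gene and less RNA per cell cannot be told apart.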

How the data were processed

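NP-binding IgG1+ GC B cells were sorted from spleens of immunized WT and Il21r-/- mice. TruSeq libraries were read as single ends. The authors aligned reads to mm10 with Rsubread and deposited unnormalized counts per gene from featureCounts (CASAVA 1.8.2 per the labels). Strand and multi-mapping settings are not given in the sources used here. Symbols matched 25293 of 27179 identifiers, and the 1886 without one held 1.57 to 2.24% of a library's counts. All 6 single-library files equal the series table, and 0 columns lacked a sample.

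Genes whose average log2 CPM was negative, and Y-linked, Xist and Ig variable genes, were dropped as in the study's methods. CPM used TMM factors and the summed counts of the 11005 genes kept. Tests were edgeR 4.0.16 (limma 3.58.1, R 4.3.3) quasi-likelihood fits of genotype and linear day. Day-wise values came from likelihood ratio fits. P-values were Benjamini-Hochberg adjusted over all genes tested, with a threshold of 0.05. DESeq2 1.42.0, size factors, filters, day as a factor and left-out libraries were alternatives. Fits were tested on simulated counts.

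Members and lists were chosen with earlier results of these data known. Named genes were the members, list genes that passed (up to 6 a list), genes beside the clusters and the 3 nearest in profile to Trim30d, Gm8995 and Gm1966. Tgtp1, Tgtp2, the low genes at the clusters and the chromosome 7 genes with large differences were named after their values were seen. Promoters were printed to 20 bases past the start because matches of Trim34a and Trim12a end there, while shares were counted over whole windows. The day pairs the libraries: deviations from the genotype means correlated across genes, which are not independent replicates, at r = 0.64, 0.413 and 0.645 on days 7, 10 and 14.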

Additional observations from a re-analysis of the deposited data

How the results depend on the processing

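The sums kept their sign with DESeq2 size factors and with the replicate block (day as a factor), which gave 0.46 for the Trim12 pair, -0.35 for the Trim30 pair and -0.06 for the Gvin-like genes. Leaving out 1 library gave 0.32 to 0.58, -0.43 to -0.28 and -0.31 to 0.19 in that order, so the sign for the Gvin-like genes turned. Pairing by the replicate block raised the genes called over 3 days from 651 to 2519, the cluster neighbours from 1 to 4, other Trim genes from 0 to 2 (Trim33 and Trim37), interferon-stimulated genes from 7 to 12 and receptor signalling genes from 3 to 11. With all genes with any count, 991 genes, 7 neighbours, 2 further family genes (Gm4759 and Trim30b), 1 other Trim gene (Trim30b) and 5 signalling genes were called. DESeq2's Wald test called 2 neighbours and 5 signalling genes. Leaving out 1 library gave 136 (without WT day 14) to 2093 (without Il21r-/- day 10) genes over 3 days. Among the lists it gave 0 to 4 neighbours, 0 further family genes, 0 to 3 other Trim genes and 1 to 5 GTPases. It also gave 2 to 9 interferon-stimulated genes, 1 to 6 signalling genes, 0 to 2 day slopes of members and 0 slope differences. For day 7 the library was left out of the estimate of spread alone and kept in the fit, which gave 104 to 220 genes against 118. For the neighbours, the GTPases, the interferon-stimulated genes and signalling, the lowest count was without WT day 14 and the highest without Il21r-/- day 10. The causes were not tested. With 1 library per genotype and day, day-wise differences have no replicate, and genes with few counts, such as Gm1966 in Il21r-/-, have wide counting intervals.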
